A study of Drosophila melanogaster with 36 samples.

Results

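The 8 genes described here are Arc1, CG15784, osk, HGTX, Glt, C1GalTA, Fmo-2 and CG30089, out of 17137 gene symbols counted in Drosophila melanogaster S2R+ cells. They were chosen by their transcript level, which differed between cells depleted of rasputin (rin) by RNA interference (RNAi, the destruction of a transcript matching an added double-stranded RNA) and mock-treated cells in at least 1 of 3 treatments. They were thus selected on the Rin RNAi over Mock RNAi fold change of the count data. The difference between Rin RNAi and Mock RNAi cells is therefore how the genes were found, and it is described below without a test. Their behaviour under arsenite, in cells that had no RNAi and in captured RNA was not used to find them, although the arsenite responses of the Rin and Mock sets come from the same libraries as the choice.

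S2R+ is a cultured line of embryonic origin with features of fly blood cells. The series has 36 libraries in 12 groups of 3. The Rin RNAi, Mock RNAi and WT (no RNAi) sets were poly(A)-selected, and each held untreated control cells, cells given 0.5 mM sodium arsenite for 3 h (stress), and cells washed and returned to fresh medium for another 3 h (recovery). The labels do not say what the mock treatment was, nor which double-stranded RNA was used against rin. Another set, Click-iT, went through the same 3 treatments with no RNAi named, and its RNA is labelled as total RNA captured on beads. Click chemistry kits are used to pull out transcripts that carry a chemical tag taken up while they were made, though the labels do not describe the tagging. The labels do not say whether replicates came from separate cultures, so p-values measure only the spread between these libraries, which may be technical.

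Rasputin is the fly member of the G3BP family, RNA-binding proteins that hold stress granules together. Stress granules are bodies of protein and untranslated mRNA that form when translation initiation stops, as it does in cells exposed to arsenite, and that dissolve when the stress is lifted. G3BP proteins also bind mRNAs in cells that are not stressed and have been linked to mRNA stability, localization and translation. The 8 genes have no shared role. They encode an organiser of the germ plasm (osk), a protein that packages RNA (Arc1), a homeodomain transcription factor (HGTX), an extracellular glycoprotein (Glt), an enzyme that builds sugar chains on secreted proteins (C1GalTA), an oxidising enzyme (Fmo-2) and a pair of proteins known by annotation numbers (CG15784 and CG30089).

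Gene counts ran from 6121664 to 11211712 in the 27 poly(A) libraries and from 169760 to 2746277 in the 9 Click-iT libraries, where reads with several alignments made up 70.2% to 94.2% of all reads. Levels are given in CPM, a gene's count relative to all gene counts of its library, scaled by TMM (a factor per library that centres most genes). Mock stress replicate 2 and Mock control replicate 1 stood apart from the other libraries of their groups. The chi-square per degree of freedom of the gene counts of Mock stress replicate 2 was 25.7 against replicate 1 and 18.7 against replicate 3, which gave 1.86 against each other. For Mock control replicate 1 it was 10.0 and 8.31, while the other control libraries gave 1.54. Rin libraries stood apart too, by smaller values. Rin stress replicate 2 gave 4.64 and 7.03, with 2.25 between the others, and Rin recovery replicate 1 gave 5.96 and 5.15, with 1.59 between the others. The genes fz and mys, known to be expressed in S2R+ cells, summed to 138 to 265 CPM in the poly(A) libraries. Of 10 hemocyte (blood cell) markers, 7 were above 1 CPM in each poly(A) set, and their summed level was 873 to 1640 CPM in Rin, 957 to 1617 CPM in Mock and 4170 to 5345 CPM in WT libraries. Summed muscle markers were at 17.8 to 27.9 CPM in Rin, 20.9 to 30.3 CPM in Mock and 2.04 to 4.43 CPM in WT libraries. The hemocyte and muscle sums of Rin and Mock libraries thus overlapped, and those of WT libraries lay apart from both. Both gaps rest largely on single genes. Pxn averaged 424 CPM in Rin, 423 CPM in Mock and 3279 CPM in WT libraries. The muscle gene Mlc2 averaged 20.4 CPM in Rin and 22.1 CPM in Mock, and no muscle marker averaged above 1.00 CPM in WT libraries. The fz and mys sum overlapped between all 3 sets, and that of germ line markers, at 109 to 160.3 CPM in Rin, 109 to 176 CPM in Mock and 169 to 243 CPM in WT libraries, overlapped between Mock and WT. Most of the germ line sum was bam, at a mean of 114 CPM in Rin, 120 CPM in Mock and 185 CPM in WT libraries. The 6 neuron markers summed to 46.9 to 67.0 CPM in Rin, 42.8 to 68.5 CPM in Mock and 25.9 to 39.7 CPM in WT libraries, and 4 fat body markers to at most 2.09 CPM. No marker was at 0 in any poly(A) set. In bulk libraries, fewer cells of a kind and less RNA per cell cannot be told apart.

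The knockdown was seen in every Rin RNAi library. rin in Rin RNAi cells was at 390.2, 280.2 and 204 CPM in control, 285, 181 and 146 CPM under stress and 252, 181 and 151 CPM in recovery. rin in Mock RNAi cells was at 896, 911 and 891 CPM in control, 864, 753 and 852 CPM under stress and 817, 853 and 793 CPM in recovery. rin in WT cells was at 684, 715 and 712 CPM in control, 685, 650.4 and 634 CPM under stress and 724, 728 and 725 CPM in recovery. No Rin RNAi library overlapped a Mock or WT library. The remaining transcript averaged 32.4% of the Mock level in control, 24.8% under stress and 23.7% in recovery. On the log2 scale this was -1.63 (SE 0.21, adjusted p = 0.0013), -2.01 (SE 0.21, adjusted p = 5.50e-05) and -2.07 (SE 0.21, adjusted p = 3.65e-05), by edgeR's quasi-likelihood test with Benjamini-Hochberg adjustment over 8707 genes, where SE is the standard error of the log2 fold change. Replicate 1 kept the most rin and replicate 3 the least in all 3 treatments, from 43.4% of the Mock mean in control replicate 1 to 17.7% in stress replicate 3.

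Arc1, CG15784 and osk were higher, and HGTX, C1GalTA, CG30089, Fmo-2 and Glt lower, in Rin RNAi than in Mock RNAi cells in all 3 treatments. The differences were small beside that of rin itself: the largest was 0.59 on the log2 scale, for CG15784 under stress. Genes passing an adjusted p of 0.05 in this contrast were 0.0459% of those tested in control, 0.161% under stress and 0.126% in recovery, 20 genes over the 3 treatments. By direction these were 0.023% higher and 0.023% lower in control, 0.0919% and 0.0689% under stress, and 0.0689% and 0.0574% in recovery. All 8 genes are among those 20, since that is how they were chosen: osk and CG30089 passed in control, Arc1, CG15784, HGTX, CG30089 and C1GalTA under stress, and Arc1, CG15784, CG30089, HGTX, Glt and Fmo-2 in recovery. Those 20 also hold rin and further genes that are not described here. The directions and roles of the 8 are therefore not those of all genes called. The threshold fell between small differences: Fmo-2 in recovery lay just inside it at -0.44 (SE 0.09), and Pgant7, a gene for an enzyme that starts O-linked sugar chains, just outside it at -0.28 (SE 0.06). Libraries of the RNAi sets did not overlap for 7 of the 8 genes in control, 8 under stress and 7 in recovery, with HGTX in control and osk in recovery the exceptions. Over all genes tested, such separation was found in 15.5%, 11.9% and 20.6% of genes, and nothing is read from the count of the 8, which the choice fixed. Without Mock stress replicate 2 the stress differences were 0.53 for Arc1, 0.59 for CG15784, 0.26 for osk, -0.48 for HGTX, -0.44 for Glt, -0.35 for C1GalTA, -0.40 for Fmo-2 and -0.30 for CG30089. Without Mock control replicate 1 the control differences ran from -0.43 for Fmo-2 to 0.47 for osk.

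**Figure D1:**
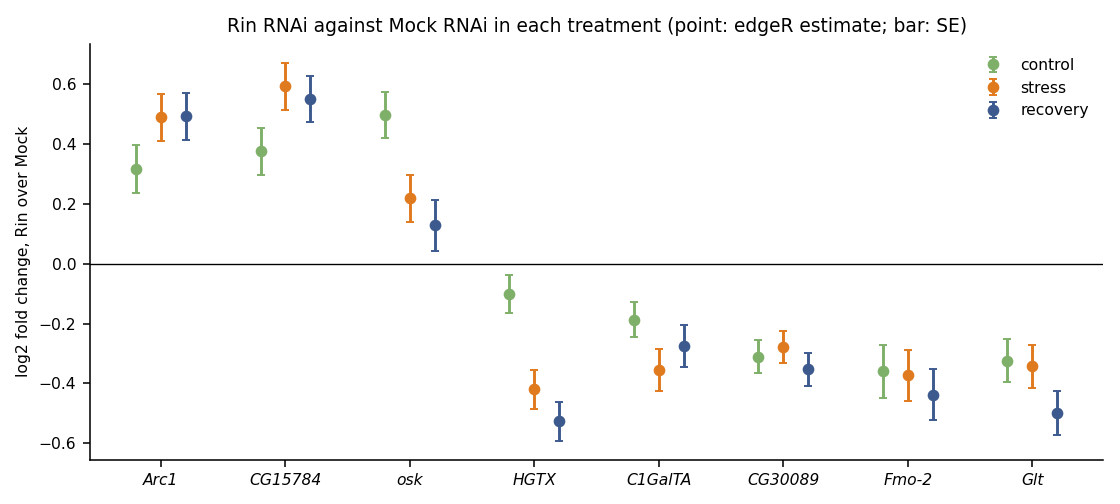
Log2 fold change of each gene in Rin RNAi over Mock RNAi cells (y axis) in control, stress and recovery, as the edgeR estimate with its standard error. Arc1, CG15784 and osk lie above 0 in each treatment and the other genes below it; osk is farthest from 0 in control, while HGTX lies near 0 in control and at -0.53 in recovery.

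The Rin RNAi over Mock RNAi difference of HGTX was -0.10 (SE 0.06) in control, -0.42 (SE 0.06) under stress and -0.53 (SE 0.06) in recovery. That of osk was 0.50 (SE 0.08), 0.22 (SE 0.08) and 0.13 (SE 0.08). That of CG30089 lay between -0.35 and -0.28 in the 3 treatments. Put as the Rin response to arsenite minus the Mock response, which uses the same libraries as the choice, HGTX stood at -0.32 (SE 0.09) under stress and -0.42 (SE 0.09) in recovery. The same quantity for osk was -0.28 (SE 0.11) and -0.37 (SE 0.11). The other genes ranged from -0.17 for C1GalTA to 0.22 for CG15784 under stress, and from -0.18 for Glt to 0.18 for Arc1 in recovery. Across all 8707 genes, edgeR called 0 such response differences in either treatment, with 295 and 759 genes at an unadjusted p under 0.05, and DESeq2 also called 0. These response differences are built from the contrasts that chose the genes. A change of the difference with treatment is thus neither shown nor excluded for any of the 8. Unequal sizes across treatments follow in part from the choice, since the genes passed the threshold in different treatments.

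Arsenite changed most of the 8 genes in each set, in a background where most genes also changed. Arc1, CG15784 and Fmo-2 rose and C1GalTA fell under stress and in recovery in all 3 sets; CG30089 rose and Glt fell in both RNAi sets; HGTX rose in WT cells and fell in Rin recovery; and osk fell in Rin RNAi cells. Under stress, 7 of 8 passed the test in Rin cells (4 higher, 3 lower), 7 in Mock cells (5 higher, 2 lower) and 5 in WT cells (4 higher, 1 lower). The share of all genes tested that passed was 61.2% in Rin, 58.8% in Mock and 60.3% in WT cells. In recovery against control, all 8 passed in Rin cells (4 higher, 4 lower), 6 in Mock cells (4 higher, 2 lower) and 6 in WT cells (4 higher, 2 lower), beside 69.5%, 65.8% and 68.7% of all genes. By direction, 30.4% of genes were higher and 30.8% lower in Rin stress, 29% and 29.8% in Mock stress, and 30.3% and 30% in WT stress. In recovery these shares were 35.2% and 34.3% in Rin, 33.1% and 32.8% in Mock, and 35.2% and 33.5% in WT cells. The median log2 fold change of the 8 under stress was 0.09 in Rin, 0.23 in Mock and 0.26 in WT cells, beside 0.01, 0.00295 and 0.01 over all genes tested. In recovery it was 0.00, 0.25 and 0.24, beside 0.03, 0.01 and -0.00481. Stress and recovery share the control libraries of each set. The Rin and Mock libraries also entered the choice of the genes, so the Rin and Mock counts are not independent of that choice. The 7 calls in Mock stress stood without Mock stress replicate 2 as well, as a count. From stress to recovery, 4 genes passed in Rin cells (Arc1 higher, and CG30089, Glt and osk lower), 1 in Mock cells (Arc1, higher) and 3 in WT cells (Arc1 and CG15784 higher, CG30089 lower), beside 30.5% of all genes in Rin (14.2% higher, 16.2% lower), 9.33% in Mock (5.02% and 4.31%) and 26.5% in WT cells (18.2% and 8.33%). When a change of 1 or more on the log2 scale was asked for as well, C1GalTA alone was called, as lower, in Rin and Mock cells under stress and in recovery, and 0 of the 8 in WT cells or from stress to recovery. That rule called 11.9% of genes in Rin stress and 17.5% in Rin recovery, 11.6% and 14.7% in Mock, and 8.51% and 13.7% in WT cells, and from stress to recovery 0.804% in Rin, 0.551% in Mock and 5.7% in WT cells. The 4 calls in Rin cells from stress to recovery became 2 without any of the Rin stress replicates and 1 without Rin recovery replicate 1, so that count rests on single libraries.

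**Figure D2:**
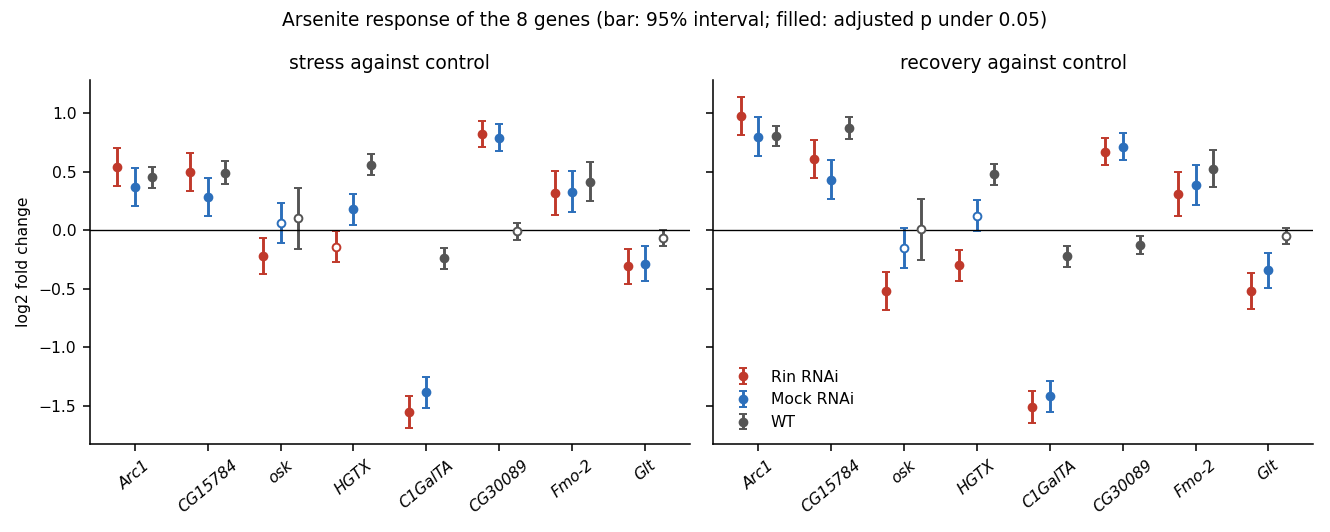
Log2 fold change of each gene under stress and in recovery against the control of its own set, in Rin RNAi, Mock RNAi and WT cells (left to right), with 95% intervals; filled points have an adjusted p under 0.05. C1GalTA lies below -1.3 in both RNAi sets and above -0.3 in WT cells, and CG30089 lies above 0.6 in both RNAi sets and near 0 in WT cells.

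osk (FBgn0003015, chr3R:8935126-8938395, plus strand, dm6) encodes Oskar, whose mRNA is carried to the posterior pole of the oocyte and whose protein assembles the germ plasm there. Its annotation has 4 exon blocks, and 12.3% of the gene is intronic. osk in Rin RNAi cells was at 31.2, 34.0 and 32.4 CPM in control, 28.7, 27.4 and 28.1 CPM under stress and 20.6, 22.2 and 25.7 CPM in recovery. osk in Mock RNAi cells was at 22.3, 24.3 and 22.4 CPM in control, 22.9, 25.7 and 23.8 CPM under stress and 20.0, 21.8 and 20.5 CPM in recovery. osk in WT cells was at 12.4, 13.0 and 10.8 CPM in control, 13.3, 14.3 and 11.5 CPM under stress and 10.2, 12.3 and 13.0 CPM in recovery. Rin control libraries were the highest of all, WT libraries the lowest, and Rin and Mock recovery libraries overlapped. The mean in Rin cells was 1.41 times the Mock mean in control, 1.16 times under stress and 1.10 times in recovery. osk fell in Rin RNAi cells, by 0.22 (SE 0.07, adjusted p = 0.0146) under stress and by 0.52 (SE 0.08, adjusted p = 5.81e-06) in recovery on the log2 scale. Its choice rested on high Rin control libraries, against which this fall was measured, so these Rin tests are not independent of the choice. osk did not pass the test in Mock RNAi cells, at 0.06 (SE 0.08, adjusted p = 0.556) and -0.15 (SE 0.08, adjusted p = 0.108), nor in WT cells, at 0.10 (SE 0.13, adjusted p = 0.512) and 0.01 (SE 0.13, adjusted p = 0.966). The Mock stress value turned to -0.11 when libraries were scaled by total counts alone. Without Rin control replicate 2 the Rin stress call was lost (adjusted p = 0.0588). The annotated lncRNA:osk shares 2251 exonic bases with osk on the same strand and was not analysed here, so its reads and those of osk cannot be told apart. The antisense gene asRNA:CR44020 shares 162 exonic bases with osk. The library kit does not mark strand, but asRNA:CR44020 had 7 counts in all Mock libraries together, against 1864 for osk.

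Arc1 (FBgn0033926, chr2R:14357927-14360297, minus strand, 1 exon block) encodes a protein related to retroviral Gag that forms capsids around RNA, known in flies from neurons. Arc1 in Rin RNAi cells was at 465, 431 and 448 CPM in control, 684, 689.9 and 587 CPM under stress and 949, 899 and 799 CPM in recovery. Arc1 in Mock RNAi cells was at 388, 367 and 323 CPM in control, 445, 491 and 461 CPM under stress and 654, 634 and 594 CPM in recovery. Arc1 in WT cells was at 196, 181 and 198 CPM in control, 279, 266 and 249 CPM under stress and 339, 321 and 318 CPM in recovery. Within each set the level climbed with each treatment, and at each treatment Rin libraries lay above Mock libraries and Mock above WT libraries. The mean in Rin cells was 1.25, 1.40 and 1.41 times the Mock mean in control, stress and recovery. Stress and recovery differences led to its choice, so its tests in Rin and Mock cells are not independent of that choice. Arc1 rose under stress by 0.54 (SE 0.08, adjusted p = 5.41e-06) in Rin, by 0.37 (SE 0.08, adjusted p = 4.48e-04) in Mock and by 0.45 (SE 0.04, adjusted p = 2.12e-11) in WT cells. In recovery it stood 0.98 (SE 0.08, adjusted p = 8.25e-10) above control in Rin, 0.80 (SE 0.08, adjusted p = 2.11e-08) in Mock and 0.81 (SE 0.04, adjusted p = 1.81e-19) in WT cells. The further rise from stress to recovery also passed the test in all 3 sets, at 0.43 (SE 0.08, adjusted p = 7.31e-04) in Rin, 0.43 (SE 0.08, adjusted p = 0.00245) in Mock and 0.36 (SE 0.04, adjusted p = 4.98e-09) in WT cells. Arc2, a neighbouring gene of the same family, was at 0.07 (SE 0.08, adjusted p = 0.458) in Rin and 0.03 (SE 0.08, adjusted p = 0.756) in Mock stress, neither called, and rose by 0.48 (SE 0.06, adjusted p = 4.02e-09) in WT stress. In recovery Arc2 rose by 0.35 (SE 0.08, adjusted p = 5.50e-04) in Rin, 0.21 (SE 0.08, adjusted p = 0.0279) in Mock and 0.62 (SE 0.06, adjusted p = 1.95e-12) in WT cells.

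HGTX (FBgn0040318, chr3L:14583222-14599540, minus strand) encodes the fly Nkx6 protein, a homeodomain transcription factor known from motor neuron development. It has 4 exon blocks, and 81.5% of the gene is intronic. HGTX in Rin RNAi cells was at 181, 181 and 190.2 CPM in control, 173, 165 and 165 CPM under stress and 149.6, 159 and 140.1 CPM in recovery. HGTX in Mock RNAi cells was at 184, 207 and 201 CPM in control, 237, 205 and 230.0 CPM under stress and 211, 217 and 219 CPM in recovery. HGTX in WT cells was at 145, 143 and 142 CPM in control, 206, 221 and 214 CPM under stress and 184, 195 and 204 CPM in recovery. The 3 sets took different courses: in Rin RNAi cells the recovery libraries were the lowest, in WT cells the control libraries were, and Mock stress replicate 2 overlapped Mock control libraries. HGTX was chosen through its Rin over Mock differences under stress and in recovery, so its tests in Rin and Mock cells are not independent of the choice. In Rin RNAi cells HGTX fell by 0.30 (SE 0.06, adjusted p = 3.44e-04) in recovery, and under stress it was at -0.14 (SE 0.06, adjusted p = 0.0653). In Mock RNAi cells it rose by 0.18 (SE 0.06, adjusted p = 0.0221) under stress and was at 0.12 (SE 0.06, adjusted p = 0.0955) in recovery. In WT cells it rose by 0.56 (SE 0.04, adjusted p = 4.94e-14) under stress and by 0.48 (SE 0.04, adjusted p = 2.47e-12) in recovery. The Mock stress call was lost without Mock control replicate 1 (0.13), without Mock stress replicate 1 (0.14) or replicate 3 (0.16) and in 3 of 7 other alternatives, whose adjusted p ran from 0.0069 to 0.881, and under total-count scaling the Mock recovery value was -0.12. The mean in Rin cells was 93.3% of the Mock mean in control, 74.8% under stress and 69.4% in recovery.

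Glt (FBgn0001114, chr2L:8672698-8676804, plus strand, 3 exon blocks) encodes Glutactin, a glycoprotein of basement membranes with a domain like that of cholinesterases. Glt in Rin RNAi cells was at 165, 155 and 167 CPM in control, 129, 138 and 128 CPM under stress and 112, 112 and 118 CPM in recovery. Glt in Mock RNAi cells was at 190.0, 215 and 204 CPM in control, 182, 144 and 174 CPM under stress and 165, 160.3 and 157 CPM in recovery. Glt in WT cells was at 1396, 1463 and 1468 CPM in control, 1379, 1356 and 1451 CPM under stress and 1359, 1331 and 1377 CPM in recovery. All WT libraries lay far above every RNAi library, and within the RNAi sets each Rin library lay below every Mock library of its treatment. The Rin mean was 80.0% of the Mock mean in control, 78.9% under stress and 70.8% in recovery. Mock stress replicate 2 was the lowest Mock stress library, and without it the stress difference was -0.44. Its choice rested on the Rin over Mock difference in recovery, so the tests of Glt in Rin and Mock cells are not independent of it. Glt fell in Rin RNAi cells by 0.31 (SE 0.07, adjusted p = 9.98e-04) under stress and by 0.52 (SE 0.07, adjusted p = 2.60e-06) in recovery. It fell in Mock RNAi cells by 0.29 (SE 0.07, adjusted p = 0.00173) under stress and by 0.34 (SE 0.07, adjusted p = 2.85e-04) in recovery. In WT cells it was at -0.07 (SE 0.03, adjusted p = 0.0733) and -0.05 (SE 0.03, adjusted p = 0.16). With libraries scaled by total counts alone, WT Glt passed the test at -0.17 under stress and -0.23 in recovery. The WT call was also gained without WT control replicate 1, at -0.09 under stress and -0.08 in recovery, and without WT stress replicate 3, at -0.10 under stress. CG9287, whose exons overlap those of Glt by 28 bases on the other strand, had 6 counts in all Mock libraries together, against 14636 for Glt.

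C1GalTA (FBgn0032078, chr2L:8943455-8951216, minus strand, 5 exon blocks, 69.4% intronic) encodes the core 1 galactosyltransferase, which adds galactose to the first sugar of O-linked chains. It lies 267 kb from Glt on chromosome arm 2L. C1GalTA in Rin RNAi cells was at 96.1, 101 and 106 CPM in control, 35.6, 34.8 and 33.6 CPM under stress and 35.1, 36.3 and 35.7 CPM in recovery. C1GalTA in Mock RNAi cells was at 112, 117 and 117 CPM in control, 48.7, 44.7 and 39.3 CPM under stress and 44.2, 42.7 and 42.5 CPM in recovery. C1GalTA in WT cells was at 172, 188 and 176 CPM in control, 148, 159 and 153 CPM under stress and 143, 154 and 150.1 CPM in recovery. Under stress and in recovery, every RNAi library lay below every control library of its own set and below all WT libraries. The gene was chosen through its Rin over Mock difference under stress, so its tests in Rin and Mock cells are not independent of the choice. C1GalTA fell in Rin RNAi cells by 1.55 (SE 0.06, adjusted p = 4.43e-14) under stress and by 1.51 (SE 0.07, adjusted p = 5.95e-14) in recovery. In Mock RNAi cells it fell by 1.38 (SE 0.06, adjusted p = 2.62e-13) and by 1.42 (SE 0.06, adjusted p = 9.95e-14). In WT cells it fell by 0.24 (SE 0.04, adjusted p = 1.38e-05) and by 0.22 (SE 0.04, adjusted p = 2.51e-05). From stress to recovery no set passed the test, with 0.04 (SE 0.07, adjusted p = 0.679) in Rin, -0.04 (SE 0.07, adjusted p = 0.774) in Mock and 0.02 (SE 0.05, adjusted p = 0.843) in WT cells. The Rin mean was 87.9% of the Mock mean in control, 78.3% under stress and 82.7% in recovery. CG46397, on the other strand of the same region, shares no exonic base with it.

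Fmo-2 (FBgn0033079, chr2R:6642418-6645098, minus strand, 6 exon blocks, 38.0% intronic) encodes a flavin-containing monooxygenase, of an enzyme family that oxidises nitrogen and sulphur in small molecules. Fmo-2 in Rin RNAi cells was at 20.0, 19.5 and 19.9 CPM in control, 24.8, 26.8 and 22.8 CPM under stress and 26.4, 24.8 and 22.2 CPM in recovery. Fmo-2 in Mock RNAi cells was at 23.2, 25.9 and 27.4 CPM in control, 33.4, 30.7 and 31.9 CPM under stress and 36.4, 31.2 and 32.2 CPM in recovery. Fmo-2 in WT cells was at 24.8, 26.3 and 23.1 CPM in control, 32.6, 35.1 and 32.2 CPM under stress and 34.8, 34.3 and 34.6 CPM in recovery. Mock and WT libraries overlapped in each treatment, and Rin libraries lay below both. Its Rin over Mock difference in recovery led to its choice, so its tests in Rin and Mock cells are not independent of that choice. Fmo-2 rose under stress by 0.32 (SE 0.09, adjusted p = 0.00441) in Rin, by 0.33 (SE 0.09, adjusted p = 0.00245) in Mock and by 0.41 (SE 0.08, adjusted p = 2.91e-05) in WT cells. In recovery it was above control by 0.31 (SE 0.09, adjusted p = 0.00544) in Rin, 0.39 (SE 0.08, adjusted p = 4.09e-04) in Mock and 0.52 (SE 0.08, adjusted p = 2.15e-07) in WT cells. Scaling by total counts alone, which moved the median of all genes to between -0.25 and -0.16 in these contrasts, took the Rin and Mock values to between 0.03 and 0.16, and these 4 calls were then lost. The Rin mean was 77.6%, 77.5% and 73.6% of the Mock mean in control, stress and recovery.

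CG15784 (FBgn0029766, chrX:5429571-5432526, plus strand, 1 exon block) is a protein-coding gene of the X chromosome. CG15784 in Rin RNAi cells was at 401, 391 and 423 CPM in control, 529, 638 and 557 CPM under stress and 561, 651 and 644 CPM in recovery. CG15784 in Mock RNAi cells was at 314, 339.6 and 281 CPM in control, 378, 382 and 382 CPM under stress and 400.2, 453 and 413 CPM in recovery. CG15784 in WT cells was at 82.1, 86.4 and 87.6 CPM in control, 127, 119 and 119 CPM under stress and 154, 149.9 and 154 CPM in recovery. At each treatment the sets were ordered Rin, Mock, WT from high to low with no overlap. The Rin mean was 1.30, 1.51 and 1.47 times the Mock mean in control, stress and recovery. Its choice rested on stress and recovery, so its tests in Rin and Mock cells are not independent of that choice. CG15784 rose under stress by 0.50 (SE 0.08, adjusted p = 1.36e-05) in Rin, by 0.28 (SE 0.08, adjusted p = 0.00436) in Mock and by 0.49 (SE 0.05, adjusted p = 2.92e-11) in WT cells. In recovery it was above control by 0.61 (SE 0.08, adjusted p = 7.23e-07) in Rin, 0.43 (SE 0.08, adjusted p = 6.31e-05) in Mock and 0.87 (SE 0.05, adjusted p = 1.41e-19) in WT cells. The Mock stress call was lost with total-count scaling (0.11). Recovery against stress was at 0.11 (SE 0.08, adjusted p = 0.307) in Rin and 0.15 (SE 0.08, adjusted p = 0.22) in Mock cells, and passed the test in WT cells, at 0.39 (SE 0.04, adjusted p = 2.69e-09).

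CG30089 (FBgn0050089, chr2R:15727381-15762044, plus strand, 7 exon blocks, 85.0% intronic) is a protein-coding gene of chromosome arm 2R. CG30089 in Rin RNAi cells was at 173, 171 and 174 CPM in control, 303, 308 and 309 CPM under stress and 263, 269 and 294 CPM in recovery. CG30089 in Mock RNAi cells was at 206, 222 and 213 CPM in control, 388, 358 and 368 CPM under stress and 345, 350.5 and 358 CPM in recovery. CG30089 in WT cells was at 368, 363 and 358 CPM in control, 363, 366 and 367 CPM under stress and 322, 331 and 318 CPM in recovery. Control libraries of both RNAi sets lay below all of their stress and recovery libraries, whereas WT control and stress libraries overlapped. CG30089 rose in Rin RNAi cells by 0.82 (SE 0.05, adjusted p = 6.67e-11) under stress and by 0.67 (SE 0.05, adjusted p = 9.89e-10) in recovery. In Mock RNAi cells it rose by 0.79 (SE 0.05, adjusted p = 1.30e-10) and by 0.71 (SE 0.05, adjusted p = 4.29e-10). In WT cells it was at -0.01 (SE 0.04, adjusted p = 0.848) under stress and fell by 0.13 (SE 0.04, adjusted p = 0.00216) in recovery. The Rin mean was 80.7%, 82.5% and 78.4% of the Mock mean in control, stress and recovery.

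**Figure D3:**
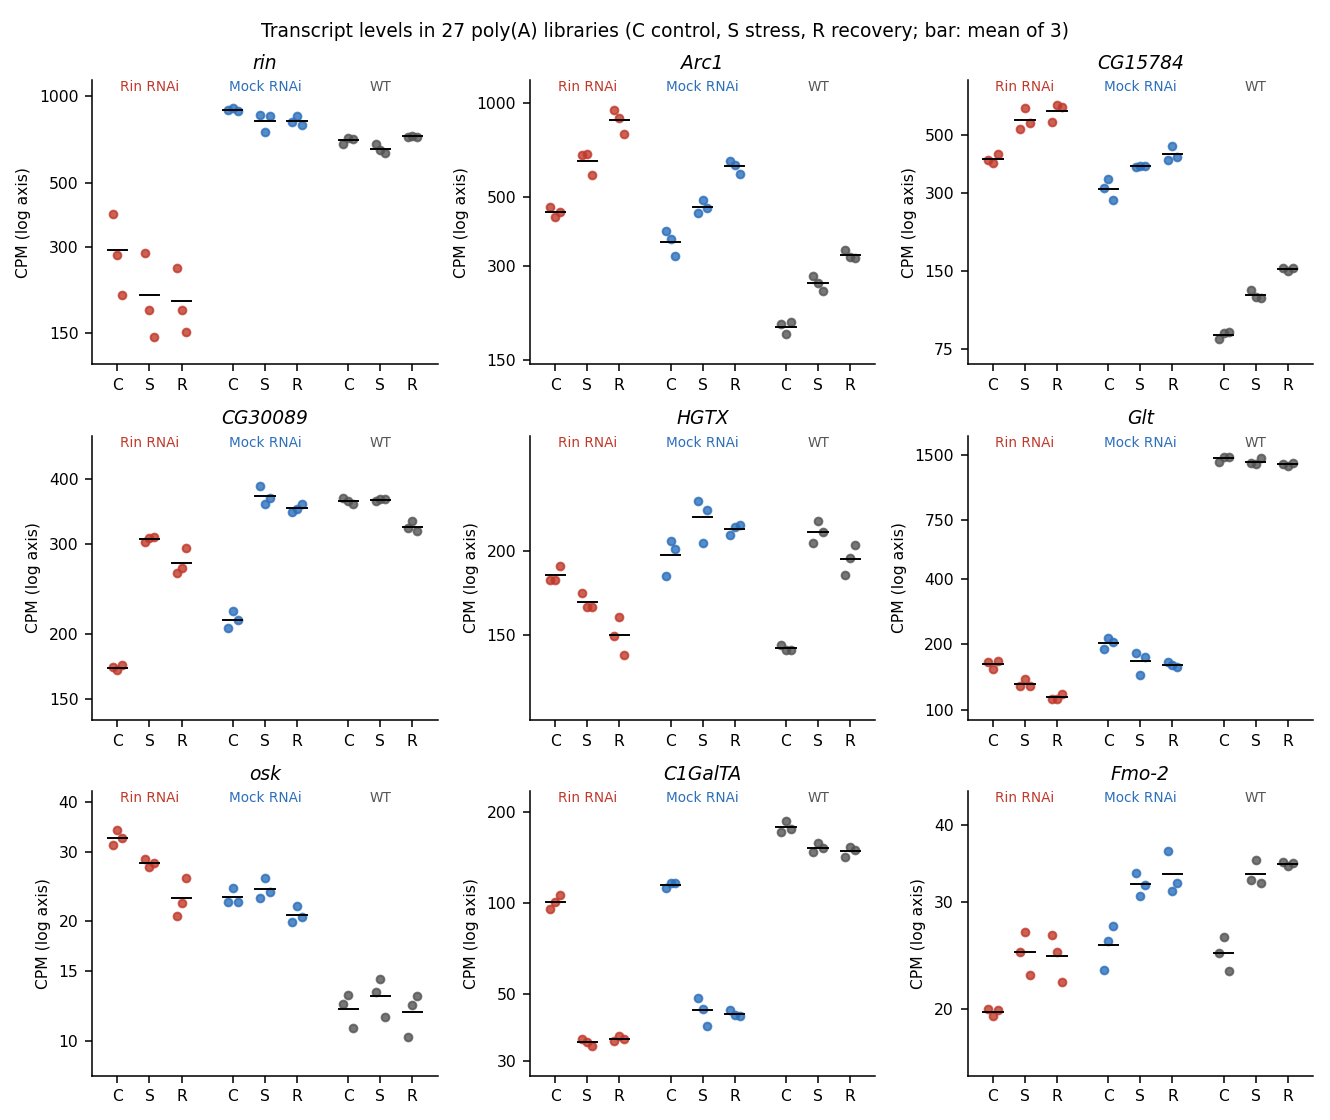
Level of rin and of each of the 8 genes in the 27 poly(A) libraries, in CPM on a log axis that differs between panels; points are libraries and black bars are means of 3, with C for control, S for stress and R for recovery. In the CG30089 and C1GalTA panels the control points of both RNAi sets stand apart from their stress and recovery points, and in the Glt panel all WT points lie at 1331 CPM or above.

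Compared per length of annotated exon (RPKM, CPM per kilobase), the order of the genes differed between sets. In Rin control cells the mean ran from 11.3 RPKM for osk to 189 RPKM for Arc1, in Mock control cells from 8.02 for osk to 151 for Arc1, and in WT control cells from 4.21 for osk to 428 for Glt. Of the 8 pairs of neighbours in the order of the 9 group means, 6 did not overlap for CG15784 and 5 for Arc1, CG30089 and C1GalTA. The same count was 4 for Glt, 3 for osk and 2 for both HGTX and Fmo-2. The highest group mean was 12.7 times the lowest for Glt and 7.25 times for CG15784, and 1.56 times for HGTX.

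The arsenite response differed between the RNAi sets and the WT set for several of the genes, tested in a joint fit of the 27 poly(A) libraries that was added after the data were examined. Under stress, the Rin response differed from the WT response for CG30089, HGTX, Glt and C1GalTA, 4 of 8 beside 28.7% of all 8902 genes, and the Mock response differed from the WT response for the same 4 genes, beside 27.2%. The Glt call in these counts was lost in 8 of 15 other settings for Rin and in 11 of 15 for Mock. In recovery the count was 5 of 8 for Rin (those 4 and osk), beside 51.3% of all genes, and 5 of 8 for Mock (those 4 and CG15784), beside 43% of all genes. Both differences use the same WT libraries. Their Rin and Mock libraries also entered the choice of the genes, osk through control and HGTX through stress and recovery. The calls and p-values of this fit are therefore not independent of the choice. C1GalTA differed by -1.32 (SE 0.08, adjusted p = 9.54e-13) in Rin and -1.15 (SE 0.08, adjusted p = 1.44e-11) in Mock cells under stress. CG30089 differed by 0.82 (SE 0.07, adjusted p = 1.26e-10) in Rin and 0.79 (SE 0.07, adjusted p = 2.60e-10) in Mock cells under stress. In recovery these were -1.24 (SE 0.08, adjusted p = 2.39e-12) in Rin and -1.15 (SE 0.08, adjusted p = 6.92e-12) in Mock cells for C1GalTA, and 0.84 (SE 0.07, adjusted p = 4.55e-11) and 0.88 (SE 0.07, adjusted p = 1.87e-11) for CG30089. The fall of C1GalTA was thus larger in both RNAi sets than in WT cells, and CG30089 rose in both RNAi sets where it did not rise in WT cells. HGTX differed in the other direction from its rise in WT cells, by -0.71 (SE 0.08, adjusted p = 1.19e-07) in Rin and -0.39 (SE 0.08, adjusted p = 5.83e-04) in Mock cells under stress. The RNAi procedure and any other difference between the sets cannot be told apart here.

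Levels also differed between the RNAi sets and WT cells before any stress. In control cells, Glt was at -3.15 (SE 0.07) in Rin and -2.83 (SE 0.06) in Mock against WT cells on the log2 scale, which placed Mock Glt 66th from the bottom of 8902 genes. CG15784 was at 2.24 (SE 0.07) in Rin and 1.87 (SE 0.07) in Mock cells. Arc1 was at 1.23 (SE 0.07) and 0.91 (SE 0.07), and osk at 1.43 (SE 0.09) and 0.93 (SE 0.10). Lower than in WT cells were CG30089, at -1.07 (SE 0.05) in Rin and -0.76 (SE 0.05) in Mock, and C1GalTA, at -0.82 (SE 0.05) and -0.63 (SE 0.05). HGTX was at 0.36 (SE 0.06) and 0.46 (SE 0.06), and Fmo-2 at -0.32 (SE 0.09) and 0.04 (SE 0.08). Of all genes, 16.8% differed by at least 1 on the log2 scale between Mock and WT control cells. The Rin and Mock values share the WT libraries, and Mock enters both the Rin against Mock and the Mock against WT values, so no overlap between these is drawn. The hemocyte marker Pxn, a basement membrane peroxidasin, moved with the sets as well, at a mean of 424 CPM in Rin, 423 CPM in Mock and 3279 CPM in WT libraries, and its part in these differences was not tested.

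The 3 Rin RNAi libraries of a treatment differ in how much rin they kept, which allowed the 8 genes to be set beside the remaining rin. In control, replicates 1, 2 and 3 kept 43.4%, 31.2% and 22.7% of the Mock mean of rin. In these libraries the log2 difference of Arc1 from the Mock mean was 0.38, 0.27 and 0.32, and that of osk was 0.44, 0.56 and 0.49. Under stress, with 34.6%, 22.0% and 17.7% of rin left, Arc1 was at 0.56, 0.57 and 0.34 and HGTX at -0.37, -0.44 and -0.44. In recovery, with 30.7%, 22.0% and 18.4% left, Arc1 was at 0.60, 0.52 and 0.35. There osk was at -0.01, 0.10 and 0.31, and Fmo-2 at -0.33, -0.42 and -0.58. Over 24 pairs of gene and treatment, replicate 1 was nearest to the Mock mean in 8 and replicate 3 farthest from it in 7. Because the same replicate number ranked alike for rin in all treatments, the libraries were not taken as independent, no correlation was computed and no relation with the remaining rin is read from these values. With rin at 43.4% of Mock, Rin control replicate 1 had CG30089 at -0.31 and Glt at -0.30.

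**Figure D4:**
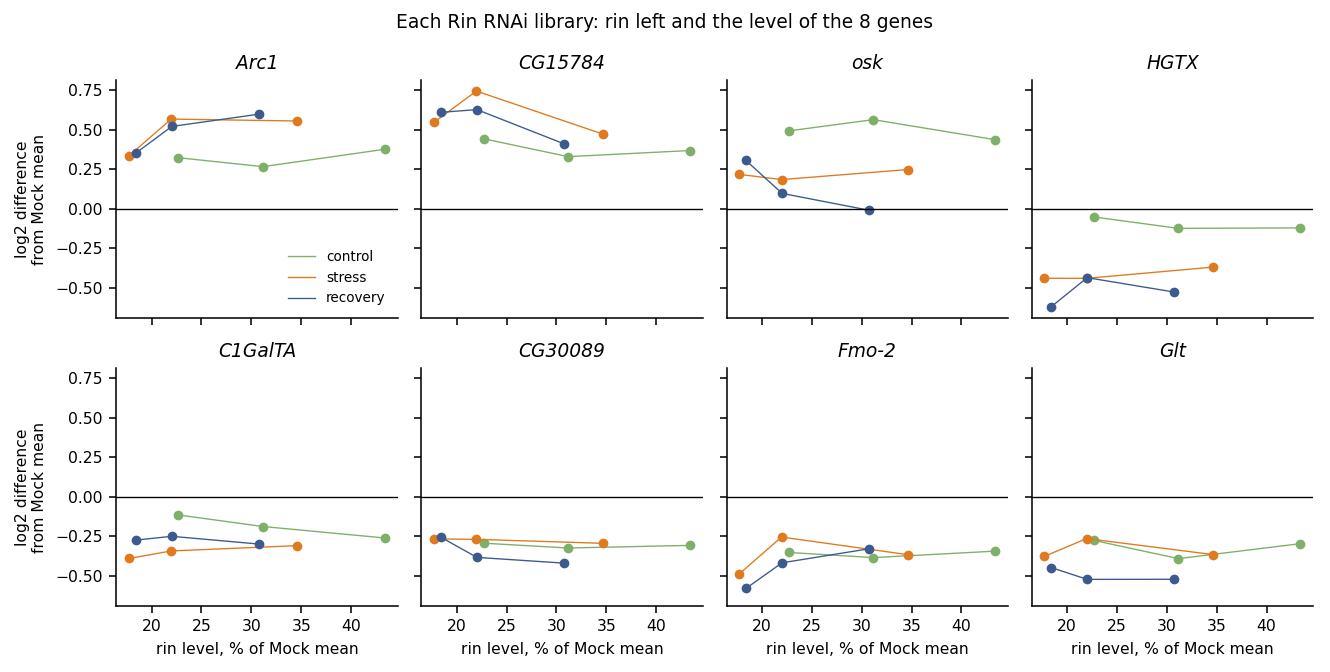
Each point is a Rin RNAi library, with the rin level left as a percentage of the Mock mean of its treatment (x axis) and the log2 difference of the gene from that Mock mean (y axis); lines join the 3 libraries of a treatment. The lines rise in some panels and fall in others. In the recovery library with the least rin, Arc1 is nearest to 0, while osk and Fmo-2 are farthest from it.

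In the Click-iT captures no change of the 8 genes passed the test, and the levels of some differed widely from those of WT poly(A) libraries. After the filter on low counts 6 of the 8 could be tested, HGTX and Fmo-2 falling below it. edgeR called 0 of these 6 and 0 of all 6558 genes in either comparison (0% of genes). At an unadjusted p under 0.05 there were 0 of the 6 genes and 983 and 1448 of all genes under stress and in recovery. DESeq2 called 0 of the 6, and 145 and 525 of all genes. The biological coefficient of variation was 42.8% in this set, against 6.49% in the RNAi sets and 2.85% in WT cells, a spread between libraries which adds to the counting error of these shallower libraries. The 95% interval of the log2 fold change ran from -0.02 to 1.76 for CG15784 in recovery and from -1.62 to 0.41 for Arc1 under stress. For C1GalTA it ran from -0.63 to 0.57 under stress and from -0.83 to 0.46 in recovery, which leaves out falls as large as those of the RNAi sets but not those of WT cells. Smaller errors stand in the authors' deposited tables, made from Click-iT and WT libraries together. Glt under stress was at -0.71 (SE 0.20) there and -0.71 (SE 0.35) here. CG15784 in recovery was at 0.81 (SE 0.30) there and 0.87 (SE 0.40) here. Click-iT stress replicate 2 lay among the control libraries on the first principal component, which held 58.5% of the variance (-46.5, with controls at -58.4 to -46.0), and recovery replicate 2 lay between the groups at -19.7. Leaving out any Click-iT library in turn gave 0 calls among the 8 as well. Hemocyte markers summed to 1859 to 2858 CPM in Click-iT libraries, below all WT libraries, and neuron markers to 114 to 649 CPM, above all WT libraries. Pxn alone averaged 3279 CPM in WT libraries, while the highest hemocyte marker in Click-iT libraries was ush, at 744 CPM. The lower hemocyte sum thus says little about the markers other than Pxn. Germ line markers summed to 0 to 33.1 CPM, against 169 to 243 CPM in WT libraries, and zpg was at 0. Muscle markers summed to 2.89 to 471 CPM, against 2.04 to 4.43 CPM in WT libraries, and fz and mys to 516 to 713 CPM, against 194 to 265 CPM. Their part in the levels below was not tested.

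Arc1 in Click-iT libraries was at 1026, 454 and 1275 CPM in control, 695, 329 and 787 CPM under stress and 852, 1434 and 1250 CPM in recovery. CG15784 in Click-iT libraries was at 245, 222 and 225 CPM in control, 281, 184 and 479 CPM under stress and 512, 238 and 519 CPM in recovery. Arc1 stress libraries lay below the recovery libraries, while control libraries of Arc1 overlapped both; for CG15784 all 3 treatments overlapped. Glt in Click-iT libraries was at 199, 125 and 224 CPM in control, 124, 96.5 and 112 CPM under stress and 105, 267 and 150.3 CPM in recovery, far below every WT library. CG30089 in Click-iT libraries was at 417, 524 and 454 CPM in control, 659, 414 and 617 CPM under stress and 499.6, 610.3 and 505 CPM in recovery. C1GalTA in Click-iT libraries was at 106, 98.9 and 126 CPM in control, 107, 119.6 and 96.7 CPM under stress and 60.2, 112 and 123 CPM in recovery. osk in Click-iT libraries was at 14.8, 14.5 and 14.6 CPM in control, 17.7, 14.2 and 30.2 CPM under stress and 33.1, 3.51 and 6.83 CPM in recovery. The 2 lowest osk values rest on 1 count each. Fmo-2 in Click-iT libraries was at 6.17, 3.15 and 11.7 CPM in control, 5.31, 7.22 and 8.24 CPM under stress and 9.03, 3.51 and 20.5 CPM in recovery, on 1 to 25 counts a library. The ratio of the Click-iT to the WT mean was 4.79 in control, 2.28 under stress and 3.62 in recovery for Arc1. For CG15784 it was 2.70 in control, 2.59 under stress and 2.77 in recovery. For Glt it was 0.127 in control, 0.0796 under stress and 0.128 in recovery. It ran from 1.28 to 1.66 for CG30089, from 1.21 to 1.59 for osk, from 0.617 to 0.705 for C1GalTA and from 0.208 to 0.318 for Fmo-2.

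HGTX was nearly missing from the captures. It had 1 count in 9 Click-iT libraries, in recovery replicate 3, among 10381413 gene counts, while its mean was 212 CPM in Mock and 184 CPM in WT libraries. At the WT share, 1905 counts would have been reached. The ratio of the WT to the Click-iT level was 1905, with an exact 95% Poisson interval from 342 to 75240 that covers counting error only. Of the 1133 genes whose WT mean was at least that of HGTX, HGTX itself was the only gene with so few Click-iT counts, and their median was 3229 counts. The authors' deposited table, made from Click-iT and WT libraries together, gives HGTX a log2 fold change of -1.21 (SE 1.67) for Click-iT stress, a value that rests on no Click-iT count in control or stress.

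**Figure D5:**
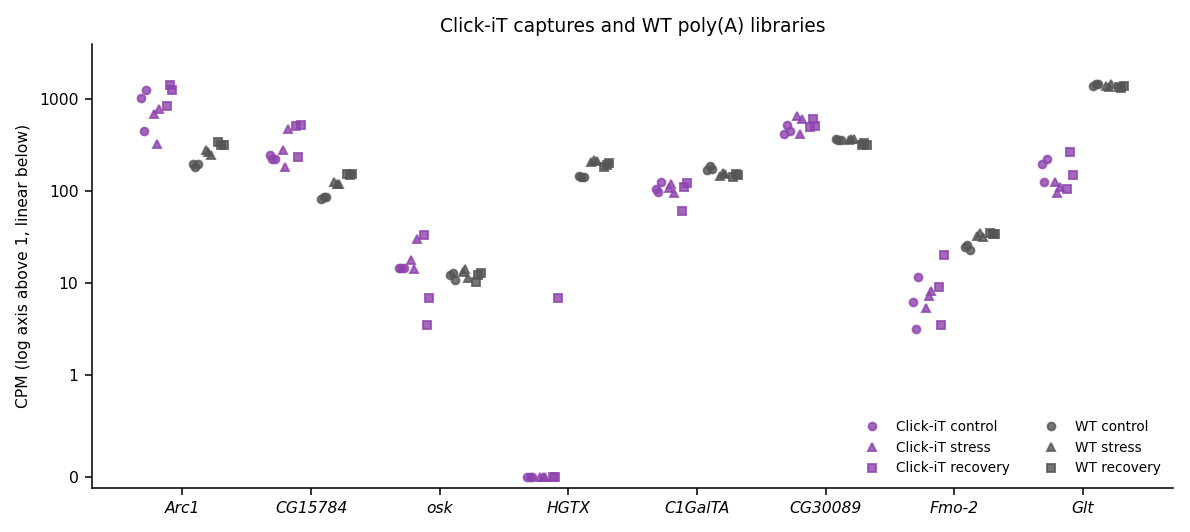
Level of the 8 genes in the 9 Click-iT libraries (left of each pair) and the 9 WT poly(A) libraries (right), in CPM on an axis that is logarithmic above 1 and linear below. HGTX is at 0 in 8 of 9 Click-iT libraries and between 142 and 221 CPM in WT libraries, and Glt is below 300 CPM in every Click-iT library.

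Among other genes of the pathways around the 8, no difference with rin depletion passed edgeR's test. In 7 lists that together hold 61 tested genes besides rin and the 8, edgeR called 0 in Rin against Mock cells in control, under stress or in recovery. At an unadjusted p under 0.05 there were 0, 9 and 13 of the 61, and DESeq2 called 0, 0 and 1, the last being Pgant7, named after its value was seen. The share of all genes at that unadjusted p is not given here, so nothing is read from the unadjusted counts. In WT recovery 68.7% of all genes passed the test, 35.2% as higher and 33.5% as lower, and the counts of listed genes are read against these shares. Of 13 tested genes of core 1 O-glycan synthesis, the pathway of C1GalTA, 7 were higher and 5 lower in recovery, with a median log2 fold change of 0.33 beside -0.00481 over all genes. Named by size of change, GlcAT-S, which adds glucuronic acid to sugar chains, averaged 78.0 ± 2.29 CPM in WT recovery and 16.1 ± 1.22 CPM in WT control (SD, n = 3 each), which is 2.31 (SE 0.07, adjusted p = 7.07e-27) on the log2 scale. Pgant5, which starts the chain, averaged 225 ± 10.3 CPM in WT recovery and 94.4 ± 6.22 CPM in WT control, a change of 1.30 (SE 0.05, adjusted p = 1.60e-23). CG34056, listed as a relative of C1GalTA, changed by 1.29 (SE 0.17, adjusted p = 2.68e-08). In Rin and Mock cells GlcAT-S rose too, by 1.29 (SE 0.09, adjusted p = 9.56e-11) and 1.47 (SE 0.09, adjusted p = 1.54e-11) in recovery, as did Pgant5, by 1.07 and 1.20, and CG34056, by 0.63 and 0.67, while C1GalTA fell.

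Of 14 tested basement membrane genes besides Glt, 1 was higher and 9 lower in Rin recovery (median log2 fold change -0.59, beside 0.03 over all genes). In Mock recovery 1 was higher and 8 lower (median -0.28, beside 0.01), and in WT recovery 3 were higher and 9 lower of 13 (median -0.35, beside -0.00481). The shares of all genes were 35.2% higher and 34.3% lower in Rin, 33.1% and 32.8% in Mock, and 35.2% and 33.5% in WT recovery. The total called among the basement membrane genes in Rin recovery, 10 of 14, was thus near the 69.5% of all genes. The type IV collagen genes vkg and Col4a1 fell in all 3 sets, with values of -0.84 (SE 0.18, adjusted p = 2.81e-04) and -0.73 (SE 0.19, adjusted p = 0.00219) in Rin, -0.37 (SE 0.16, adjusted p = 0.0476) and -0.46 (SE 0.20, adjusted p = 0.0467) in Mock, and -0.79 (SE 0.08, adjusted p = 6.60e-11) and -0.72 (SE 0.06, adjusted p = 5.19e-13) in WT recovery on the log2 scale. Tig, which encodes the matrix protein Tiggrin, was at 0.07 (SE 0.12, adjusted p = 0.626) in Rin and 0.18 (SE 0.12, adjusted p = 0.19) in Mock, and rose by 0.79 (SE 0.03, adjusted p = 9.13e-23) in WT recovery. Both tested genes of cholinesterase-like adhesion proteins besides Glt were higher in Rin, Mock and WT recovery, and Gli, which encodes gliotactin of septate junctions, averaged 69.9 ± 2.01 CPM in WT recovery and 14.7 ± 1.32 CPM in WT control.

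Among 20 tested genes that act on oskar mRNA or in the germ plasm, 3 were higher and 12 lower in Rin recovery (median log2 fold change -0.27). In Mock recovery 2 were higher and 10 lower (median -0.26), and in WT recovery 4 were higher and 9 lower of 18 (median -0.07). The totals called, 15 of 20, 12 of 20 and 13 of 18, were near the shares of all genes, 69.5% in Rin, 65.8% in Mock and 68.7% in WT recovery. By direction, 34.3% of all genes were lower in Rin, 32.8% in Mock and 33.5% in WT recovery. Higher were 35.2%, 33.1% and 35.2%. More of the listed genes were thus lower than higher, and the list was not tested as a set. stau, which encodes an RNA-binding protein of oskar transport, was at -0.20 (SE 0.08, adjusted p = 0.0263) in Rin, -0.03 (SE 0.08, adjusted p = 0.78) in Mock and 0.61 (SE 0.05, adjusted p = 7.04e-14) in WT recovery. BicD, which encodes a cargo adaptor of dynein, was at -0.12 (SE 0.08, adjusted p = 0.157) in Rin, -0.02 (SE 0.08, adjusted p = 0.851) in Mock and 0.52 (SE 0.04, adjusted p = 2.83e-13) in WT recovery. tral, which encodes a translational repressor, was at -0.70 (SE 0.07, adjusted p = 1.85e-08) in Rin, -0.56 (SE 0.07, adjusted p = 4.94e-07) in Mock and -0.48 (SE 0.04, adjusted p = 2.95e-14) in WT recovery. Of 3 tested motor neuron homeodomain genes besides HGTX, 3 were higher in WT recovery, and zfh1 alone had a mean above 10 CPM, at 1009 ± 7.23 CPM in WT recovery and 625 ± 17.0 CPM in WT control. In Rin recovery zfh1 was lower, at -0.30 (SE 0.10, adjusted p = 0.0123), and in Mock recovery it was at -0.04 (SE 0.10, adjusted p = 0.762). Of 7 genes whose proteins bind Rasputin or join stress granules, 6 were lower and 1 higher in Rin recovery, 5 and 1 in Mock recovery, and 5 and 1 in WT recovery. These counts stand beside the same shares of all genes, and this list was not tested as a set either. Usp10, Fmr1 and Capr, which encode granule proteins or partners of the G3BP family, had log2 fold changes of -0.96, -0.66 and -0.33 in Rin recovery, of -0.63, -0.47 and -0.28 in Mock recovery, and of -0.42, -0.24 and -0.22 in WT recovery, all passing the test.

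Across the 9 poly(A) group means, the pattern most like that of each gene was sought among 8318 genes by Pearson's r, as a description of 9 points that share sets and libraries. Glt was most like CG4829 (r = 0.998) and Mct1 (0.997), C1GalTA like Incenp (0.997) and eater (0.995), and CG15784 like CG42390 and CG45060 (0.99 for both). Arc1 was most like Arfrp1 and CG5913 (0.98 for both), osk like unc-13 (0.99) and CG9663 (0.98), and CG30089 like CG6293 (0.97) and CG3770 (0.96). Lower values were found for Fmo-2, with Yif1 (0.90) and CG12163 (0.89), and for HGTX, with CG4709 (0.84) and CG4617 (0.83). The named genes are not particular partners where many came close. Above an r of 0.95 lay 188 genes for C1GalTA, 184 for CG15784, 176 for Glt, 49 for osk and 36 for Arc1. That count was 3 for CG30089 and 0 for Fmo-2 and HGTX. Among the 8 themselves r was highest between Arc1 and CG15784 (0.95) and lowest between CG15784 and Glt (-0.97). The gap between the WT set and both RNAi sets enters all of these values.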

How the data were processed

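The members and the gene lists were chosen with earlier results of these data known. Libraries were made with a kit that does not mark strand and read from 1 end, per the labels' protocols. STAR 2.5.3, HTSeq and DESeq2 are named with build dm6 in the submitters' processing notes, without their roles. The deposited per-library files hold raw read counts for 17137 gene symbols, with rows for unassigned and multi-mapped reads, which stayed out of library sizes; multi-mapped reads were 3.88% to 7.51% of reads in poly(A) and 70.2% to 94.2% in Click-iT libraries. The authors' deposited comparison tables hold log2 fold changes. For the poly(A) comparisons, the edgeR estimates given here had the same sign for 80 of 80 member values, with a largest difference of 0.0135. Click-iT values were outside that check, and C1GalTA under Click-iT stress was at 0.00358 in the authors' table and -0.03 here. The authors' Click-iT tables were made from Click-iT and WT libraries together, judged from their mean counts.

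Counts were tested with edgeR 4.0.16 in R 4.3.3 (TMM, filterByExpr, quasi-likelihood F-test, two-sided, Benjamini-Hochberg adjustment over all genes tested) in 3 group-means fits: WT (9 libraries, 8123 genes), Mock and Rin (18 libraries, 8707 genes) and Click-iT (9 libraries, 6558 genes). A call is an adjusted p under 0.05. Levels are CPM with TMM over the 27 poly(A) libraries, and Click-iT libraries have TMM factors of their own. A joint fit of 27 libraries (8902 genes) was added after the data were examined. The code was tested on simulated data. Gene counts of 6121664 to 11211712 a library set the precision in poly(A) RNA, and 169760 to 2746277 in Click-iT. No 2 libraries held identical counts or agreed within sampling noise. Positions come from Ensembl's fly annotation in dm6 coordinates, in which 95.1% of symbols were found. Alternatives were RLE factors, total library size, other filters, DESeq2 1.42.0, only the groups compared, a replicate block and leaving out each library. The rule named all 8 members, rin, genes overlapping a member, up to 3 genes of each list by size of change in WT recovery among those called with a mean of at least 10 CPM, and the 2 genes most like each member. Over all genes, same-numbered replicates did not deviate together, so the numbers were not taken to pair libraries. The rin level itself was an exception, since it ranked alike by replicate number in all 3 treatments of the Rin set.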

Additional observations from a re-analysis of the deposited data

Results flagged for a closer look

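The arsenite response of CG30089, C1GalTA, HGTX, Glt, osk and CG15784 differed between an RNAi set and WT cells in the joint edgeR fit of the 27 poly(A) libraries (adjusted p over 8902 genes, 3 libraries per group). C1GalTA fell further than in WT cells, by -1.32 in Rin and -1.15 in Mock under stress and by -1.24 in Rin and -1.15 in Mock in recovery, on the log2 scale. CG30089 stood above its WT response by 0.82 in Rin and 0.79 in Mock under stress, and by 0.84 and 0.88 in recovery. For HGTX the difference was -0.71 in Rin and -0.39 in Mock under stress, and -0.74 and -0.31 in recovery. Glt differed by -0.25 in Rin (adjusted p = 0.0289) and -0.23 in Mock (adjusted p = 0.0468) under stress, and by -0.42 and -0.25 in recovery. osk differed in Rin recovery, by -0.49 (adjusted p = 0.00541), and CG15784 in Mock recovery, by -0.40 (adjusted p = 0.00232). Under 15 other settings of this fit, the Glt stress difference lost its call in 8 for Rin and 11 for Mock, and the Glt difference in Mock recovery lost it in 2, while the others kept theirs. All of these differences share the WT libraries, and RNAi and the set of libraries cannot be told apart. The Rin and Mock libraries in them also entered the choice of the genes, so these calls are not independent of that choice.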

How the results depend on the processing

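Counts of the 8 genes called were recomputed under 8 settings and with each library left out, and no call changed sign. Asking for a change of 1 or more on the log2 scale left 1 gene in Rin stress, Rin recovery, Mock stress and Mock recovery, and 0 in WT stress, WT recovery and each recovery against stress contrast. Scaling by total library size alone gave 4 calls in Mock stress, against 7, and 2 in Mock recovery against stress, against 1. That scaling moved the median of all genes by -0.16 and -0.25 in Rin, -0.16 and -0.23 in Mock, -0.09 and -0.18 in WT and -0.05 and -0.26 in Click-iT under stress and in recovery, and the fewer calls were of genes that rose. It also gave a call to osk in Mock recovery (-0.39), HGTX in Rin stress (-0.31), Glt in WT stress (-0.17) and recovery (-0.23) and CG30089 in WT stress (-0.11), among others. With 1 library left out, Rin recovery against stress ranged from 1 to 4 calls, Rin stress and Mock stress from 6 to 7, WT stress from 5 to 6, WT recovery from 6 to 7 and WT recovery against stress from 2 to 3, while Rin recovery gave 8, Mock recovery 6 and Mock recovery against stress 1 each time. Replicate numbers were tried as a block. With the replicate block the counts were 7, 8 and 4 in Rin (stress, recovery, recovery against stress), 7, 6 and 1 in Mock, 5, 6 and 3 in WT, and 0 and 0 in Click-iT, the same as without it. The correlation of the same-numbered libraries' deviations from their group means ran from -0.28 to 0.21 in the RNAi sets, -0.03 to 0.03 in WT and -0.35 to 0.60 in Click-iT, and 6 of 18, 4 of 9 and 2 of 9 libraries correlated best with their own number. Correlations with the remaining rin were not run, because replicate numbers ranked alike for rin in all 3 treatments. In Click-iT libraries low depth and the spread between libraries both limit the values, and their shares were not tested.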
